A study of Homo sapiens with 4 samples.

Results

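The genes described here are 10 genes used as readouts of the epithelial-to-mesenchymal transition (EMT): the mesenchymal proteins VIM and FN1, the cadherins CDH1 and CDH2, the epithelial surface protein EPCAM, and the transcription factors SNAI1, SNAI2, TWIST1, ZEB1 and ZEB2. They were taken by symbol from a table of 16376 genes, and all 10 had a row. They were selected on known EMT roles and on the FPKM difference between the ketotifen and PBS libraries, in which VIM and FN1 were already seen to pass the test. Their changes are therefore given as a description, and the p-values quoted are those of a fit over all tested genes, not independent support.

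RNA was sequenced from LASCPC-01 cells, human neuroendocrine prostate cancer cells that were derived from normal prostate epithelial cells by introducing N-Myc and activated AKT1. Both groups carry these oncogenes. One group of 2 libraries received PBS, the control. The other group of 2 received ketotifen, an H1 antihistamine and mast cell stabiliser named in the series title as a candidate treatment for this cancer. All 4 libraries are labelled wild type and day 3, and the labels state no ketotifen dose. The names of the ketotifen columns carry a number whose meaning is not stated. The 4 libraries come from a single cell line, and the labels do not say whether the libraries of a group are separate cultures. P-values therefore measure the spread between libraries, which may be technical.

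In EMT, epithelial cells loosen their cell-to-cell junctions and take on a more motile, mesenchymal form. SNAI1, SNAI2, ZEB1, ZEB2 and TWIST1 can drive it, in part by repressing CDH1, which encodes the junction protein E-cadherin, and the switch is often accompanied by more vimentin, fibronectin and N-cadherin (CDH2). Neuroendocrine prostate cancers often carry neural as well as epithelial features, and N-cadherin is also a neural cadherin.

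The promoters of VIM and FN1 are shown because these are the genes of the set that passed the test. Each is the 250 bases before a transcript start in RefSeq (GRCh38.p14), 5′ to 3′ on the gene's strand, for VIM chr10:17227991-17228240 on the plus strand and for FN1 chr2:215436069-215436318 on the minus strand. Capitals mark GGGCGG on either strand and TGACGTCA, the palindromic cyclic AMP response element.
VIM: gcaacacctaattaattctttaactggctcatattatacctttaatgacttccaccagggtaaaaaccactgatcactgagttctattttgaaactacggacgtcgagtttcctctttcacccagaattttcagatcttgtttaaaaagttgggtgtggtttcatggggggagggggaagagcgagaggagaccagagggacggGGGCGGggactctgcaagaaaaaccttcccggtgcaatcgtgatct
FN1: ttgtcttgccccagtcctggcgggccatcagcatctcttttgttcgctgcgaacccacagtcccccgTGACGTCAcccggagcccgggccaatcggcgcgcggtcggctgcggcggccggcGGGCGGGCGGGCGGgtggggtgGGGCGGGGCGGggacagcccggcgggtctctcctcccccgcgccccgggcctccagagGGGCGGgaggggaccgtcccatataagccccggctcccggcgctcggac
The FN1 window held 6 matches to GGGCGG, some overlapping, and the VIM window 1, where 42.6% of the 35116 promoter windows of the same length held at least 1. TGACGTCA was present in the FN1 window, 183 to 176 bases before the RefSeq start, and in 1.65% of all windows. In GENCODE v29 the FN1 gene starts at 215436172, inside this window, so the last part of the FN1 window lies within the annotated gene. The E-box CACCTG, the form bound by the SNAI and ZEB factors, was in neither window on either strand, and neither held any CANNTG, the wider E-box pattern that includes it. CACCTG was present in 17.5% and CANNTG in 61.8% of all windows. TATAAA and ACGTG were also searched on both strands, and neither window held them, where 10.7% and 18.5% of all windows did. The VIM window lies before the most upstream start, and the 10 GENCODE v29 transcripts of VIM have 9 start positions, from 17228259 to 17233225. Since 8 of the 10 start over 500 bases after the first, the VIM motif counts do not cover the promoters of most of its transcripts. Of the 10 genes 5 had an entry in the promoter table.

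Levels are given in FPKM, a fragment count divided by gene length and by library size, which can be compared between genes. They spanned a wide range, with epithelial genes highest and the factor SNAI1 and N-cadherin next (the plot of levels in each library). EPCAM was highest, with 232 and 228 FPKM in PBS libraries A and B and 243 and 240 FPKM in ketotifen libraries A and B. It ranked between 184 and 194 among the 16376 genes in every library. CDH1 came next, then SNAI1 and CDH2, each with at least 36.9 FPKM, followed at a distance by VIM and FN1. SNAI2, ZEB2, TWIST1 and ZEB1 were below 1 FPKM in every library.

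**Figure D1:**
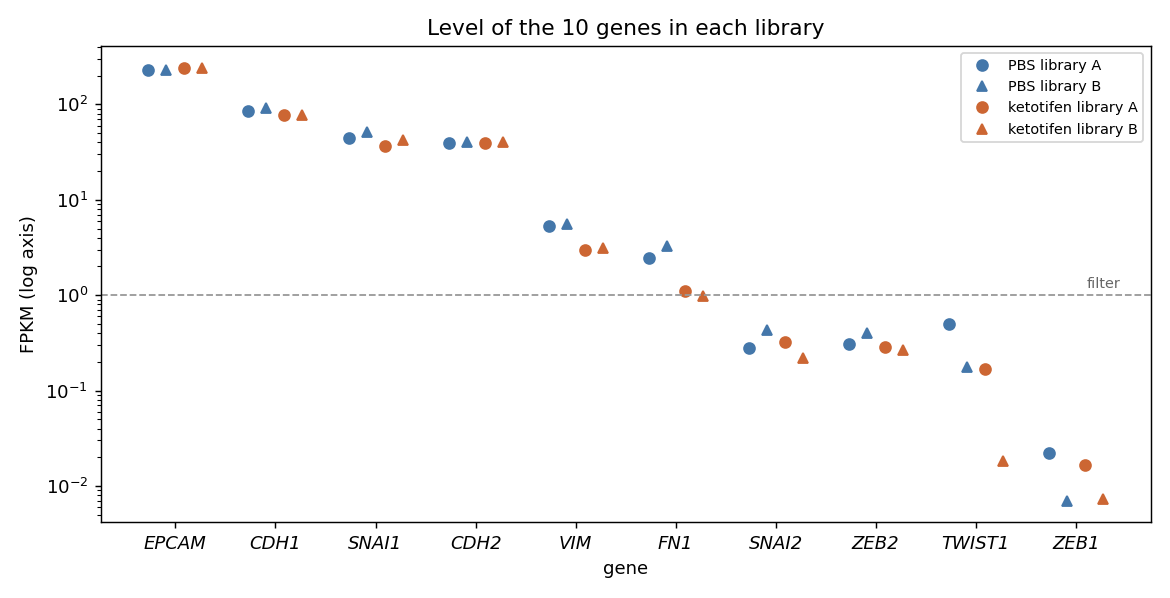
FPKM on a log axis for each of the 10 genes, ordered by the PBS mean, with 1 point per library (blue PBS, orange ketotifen, circles library A, triangles library B) and a dashed line at 1 FPKM, the mean a gene needed to be tested. EPCAM, CDH1, SNAI1 and CDH2 lie at 36.9 FPKM or more, VIM and FN1 between 0.971 and 5.52 FPKM, and the other 4 factors below 1 FPKM.

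The order under PBS was EPCAM, CDH1, SNAI1, CDH2, VIM, FN1, SNAI2, ZEB2, TWIST1 and ZEB1. The library ranges of neighbours in that order did not overlap, except for SNAI2 with ZEB2 and ZEB2 with TWIST1. Under ketotifen CDH2 stood above SNAI1 and ZEB2 above SNAI2, but in both pairs the ranges overlapped. RNA of both cadherins was present in every library, which in bulk RNA does not show that the same cells held both. The level of CDH1 relative to CDH2 was 2.16 and 2.26 with PBS and 1.97 and 1.90 with ketotifen.

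Among the 5 factors of the set, SNAI1 made up nearly all of the RNA. Its share of the summed FPKM of the 5 factors was 97.5% and 98.0% with PBS and 97.9% and 98.8% with ketotifen. The other 4 factors together reached 1.11 and 1.02 FPKM with PBS and 0.794 and 0.511 FPKM with ketotifen. High E-cadherin RNA and high SNAI1 RNA were thus found in the same libraries, at no less than 77.0 and 36.9 FPKM respectively.

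The FPKM values move in steps of 1 read, which allowed the reads behind them to be worked out. The scaling totals implied by these steps were between 32873603 and 36703851 fragments per library. Across genes PBS library B correlated least with the ketotifen libraries, at 0.993 and 0.994 on the log2 scale, where the others ranged from 0.996 to 0.998. All 10 genes gave whole read numbers with a whole gene length, for example 2157 bases for VIM and 8692 bases for FN1. Intervals quoted on reads are exact 95% intervals and cover counting error only.

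VIM encodes vimentin, the intermediate filament protein of mesenchymal cells (ENSG00000026025, GRCh38 chromosome 10, 17228259 to 17237593, plus strand). Its level was 5.36 FPKM in PBS library A and 5.52 FPKM in PBS library B, from 380 and 414 reads. In ketotifen libraries A and B it was 3.01 and 3.14 FPKM, from 238 and 229 reads. Both ketotifen libraries lay below both PBS libraries, and the counting intervals of the groups did not overlap (4.83 FPKM was the lowest bound with PBS and 3.58 FPKM the highest with ketotifen). Each ketotifen library had 54.4% to 58.7% of the level of each PBS library. VIM fell from 5.44 ± 0.115 to 3.08 ± 0.0975 FPKM (SD, n = 2 libraries each). On the log2(FPKM + 1) scale, which understates changes of low genes, the change was -0.66 ± 0.07 (SE), with an adjusted p of 0.0284 in limma (a moderated linear model, Benjamini-Hochberg adjusted over 10586 genes). In bulk RNA, fewer cells of a type and less RNA per cell cannot be told apart, and without the strand setting of the counting, reads of the overlapping antisense gene VIM-AS1 cannot be separated from those of VIM.

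FN1 encodes fibronectin, a matrix glycoprotein (ENSG00000115414, GRCh38 chromosome 2, 215360440 to 215436172, minus strand). It had 2.46 and 3.30 FPKM in PBS libraries A and B, from 702 and 996 reads. In ketotifen libraries A and B it had 1.10 and 0.971 FPKM, from 350 and 285 reads. The groups were again apart, but the PBS libraries also differed from each other by more than counting error. PBS library B had 1.34 times the level of PBS library A (interval 1.22 to 1.48). FN1 fell from 2.88 ± 0.594 to 1.03 ± 0.0891 FPKM (SD, n = 2 each), with each ketotifen library at 29.5% to 44.7% of each PBS library. The log2(FPKM + 1) change was -0.92 ± 0.12 (SE, limma adjusted p = 0.0426).

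**Figure D2:**
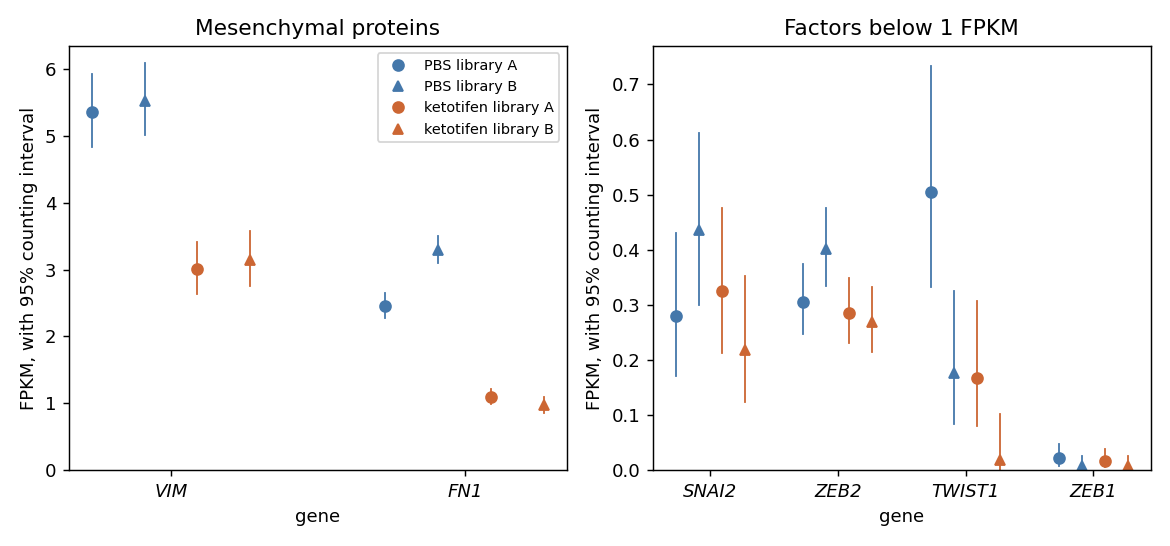
FPKM of VIM and FN1 (left) and of the 4 factors below 1 FPKM (right), with 1 point per library and bars for the exact 95% counting interval of its reads. For VIM and FN1 both ketotifen libraries lie below both PBS libraries, while each of the 4 factors has bars that overlap across groups.

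At an adjusted p under 0.05, 2 of the 6 tested genes of the set fell (VIM and FN1), none rose and 4 were not called. Over all tested genes 0.113% were called lower and 0.00945% higher, which is the background of this comparison and not a test of the set, since the set was chosen with these calls known. Voom, limma's model for read counts, was run on the recovered reads and called VIM, FN1 and CDH1 lower and none of the 6 higher, where it called 3.86% of genes lower and 3.72% higher. In voom, whose log2 scale has no added 1 FPKM, the change was -0.82 ± 0.16 (SE, adjusted p = 0.00355) for VIM and -1.46 ± 0.15 (SE, adjusted p = 9.34e-06) for FN1.

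The limma call was not kept under every setting. For VIM it was lost after median ratio scaling (adjusted p = 0.0705), after quantile normalization (adjusted p = 0.0575) and with no filter on low genes (adjusted p = 0.318), and for FN1 under these and 3 others, among them leaving out ketotifen library B (adjusted p = 0.0607). Over all genes limma called 1 higher and 12 lower, against 1 and 1 after median ratio scaling and 1 and 2 after quantile normalization.

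**Figure D3:**
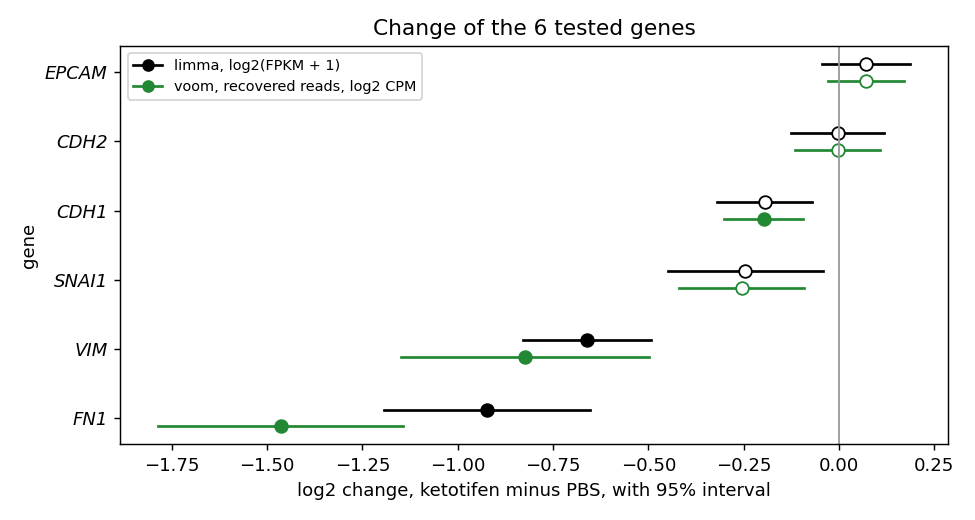
Log2 change, ketotifen minus PBS, of the 6 tested genes with 95% intervals, from limma on log2(FPKM + 1) in black and from voom on recovered reads in green, filled where the adjusted p was under 0.05. VIM and FN1 lie left of all others in both, CDH2 is at 0.00 in both, and CDH1 is filled in voom only.

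CDH1 encodes E-cadherin, the adhesion molecule of epithelial junctions (ENSG00000039068, chromosome 16, 68737225 to 68835548, plus strand). Its level was 85.7 and 91.3 FPKM in PBS libraries A and B and 77.4 and 77.0 FPKM in ketotifen libraries A and B. Both ketotifen libraries were below both PBS libraries, the same side as VIM and FN1. As a ratio the difference was smaller than theirs, each ketotifen library having 84.3% to 90.3% of the level of each PBS library. The log2(FPKM + 1) change was -0.19 (95% interval -0.32 to -0.07, limma adjusted p = 0.136), which did not pass. It passed in voom (-0.20 ± 0.05 SE, adjusted p = 0.019) and in limma without PBS library A (adjusted p = 0.0028).

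CDH2 encodes N-cadherin (ENSG00000170558, chromosome 18, 27950966 to 28177446, minus strand). It had 39.6 and 40.3 FPKM in PBS libraries A and B, and 39.2 and 40.6 FPKM in ketotifen libraries A and B. The ketotifen values enclosed the PBS values. The log2(FPKM + 1) change was 0.00 (interval -0.12 to 0.12, limma adjusted p = 0.979), and its sign depended on the scaling.

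EPCAM encodes an epithelial adhesion molecule that is also a surface marker of carcinoma cells (ENSG00000119888, chromosome 2, 47345158 to 47387601, plus strand). Its ketotifen libraries were both above its PBS libraries, at 103% to 107% of the PBS level in the 4 pairs of libraries. The log2(FPKM + 1) change was 0.07 (interval -0.04 to 0.19, limma adjusted p = 0.450), and after quantile normalization it was -0.02, so no direction is given. With VIM lower and EPCAM near its PBS level, the level of EPCAM relative to VIM was 43.3 and 41.2 with PBS and 81.0 and 76.2 with ketotifen. For CDH1 relative to VIM these values were 16.0 and 16.5 against 25.7 and 24.5.

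SNAI1 encodes Snail, the zinc-finger repressor of CDH1 (ENSG00000124216, chromosome 20, 49982999 to 49988886, plus strand). It had 44.1 and 50.8 FPKM in PBS libraries A and B and 36.9 and 42.8 FPKM in ketotifen libraries A and B. The groups did not overlap, but the gap between the lowest PBS and the highest ketotifen library was 1.27 FPKM, smaller than the difference between libraries within either group. Library B exceeded library A by 1.15 times with PBS (interval 1.09 to 1.22) and by 1.16 times with ketotifen (interval 1.09 to 1.23). The log2(FPKM + 1) change was -0.25 (interval -0.45 to -0.04, limma adjusted p = 0.192, voom adjusted p = 0.0512), and it did not pass. It ranged from -0.35 to -0.14 when single libraries were left out, and passed without PBS library A (adjusted p = 0.000971).

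The other 4 factors were below the filter of a mean of 1 FPKM over the 4 libraries and were not tested in the main comparison. ZEB2, a zinc-finger E-box repressor (chromosome 2, 144364364 to 144524583), had 0.305 and 0.401 FPKM with PBS and 0.285 and 0.268 FPKM with ketotifen, from 93, 129, 97 and 84 reads. SNAI2, or Slug (chromosome 8, 48917604 to 48921740), had 0.279 and 0.436 FPKM with PBS and 0.325 and 0.217 FPKM with ketotifen, from 20, 33, 26 and 16 reads. The ketotifen libraries of ZEB2 were both lower, by a gap of 0.0201 FPKM, and those of SNAI2 overlapped the PBS libraries. ZEB1, the paralogue of ZEB2 (chromosome 10, 31318495 to 31529814), had 6, 2, 5 and 2 reads in the 4 libraries in the same order, at most 0.0223 FPKM. At this depth no difference beyond counting error was seen in SNAI2 or ZEB1, and for ZEB1 the interval was too wide to exclude a large one. Summed over libraries, the ketotifen level was 0.76 times the PBS level for SNAI2 (interval 0.49 to 1.16) and 0.84 times for ZEB1 (interval 0.26 to 2.65). For ZEB2 it was 0.78 times (interval 0.64 to 0.96), an interval that covers counting error and not the spread between libraries.

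TWIST1, a helix-loop-helix factor (chromosome 7, 19020991 to 19117672), differed between the libraries within each group. It had 27 reads in PBS library A and 10 in PBS library B, then 10 in ketotifen library A and 1 in ketotifen library B. In FPKM these are 0.504, 0.177, 0.167 and 0.0182. PBS library B and ketotifen library A were nearly equal, so the groups were apart by only 0.00936 FPKM. PBS library B had 0.35 times the level of PBS library A (interval 0.15 to 0.75), a difference within the controls beyond counting error. Summed over libraries, the ketotifen level was 0.29 times the PBS level (interval 0.13 to 0.57, counting error alone). In limma with no filter, none of these 4 passed, with adjusted p between 0.472 for ZEB2 and 0.918 for ZEB1 (2260 genes of that fit had an unadjusted p under 0.05, and 0 passed).

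Counted over all 10 genes, both ketotifen libraries were below both PBS libraries in 6, above in 1 and overlapping in 3. Among the 6 tested genes this was 4 below and 1 above, where 31.2% of all tested genes were below and 23.2% above. Among the 4 genes under the filter it was 2 below, where 20.8% of genes under the filter with any read were below and 9.99% above.

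**Figure D4:**
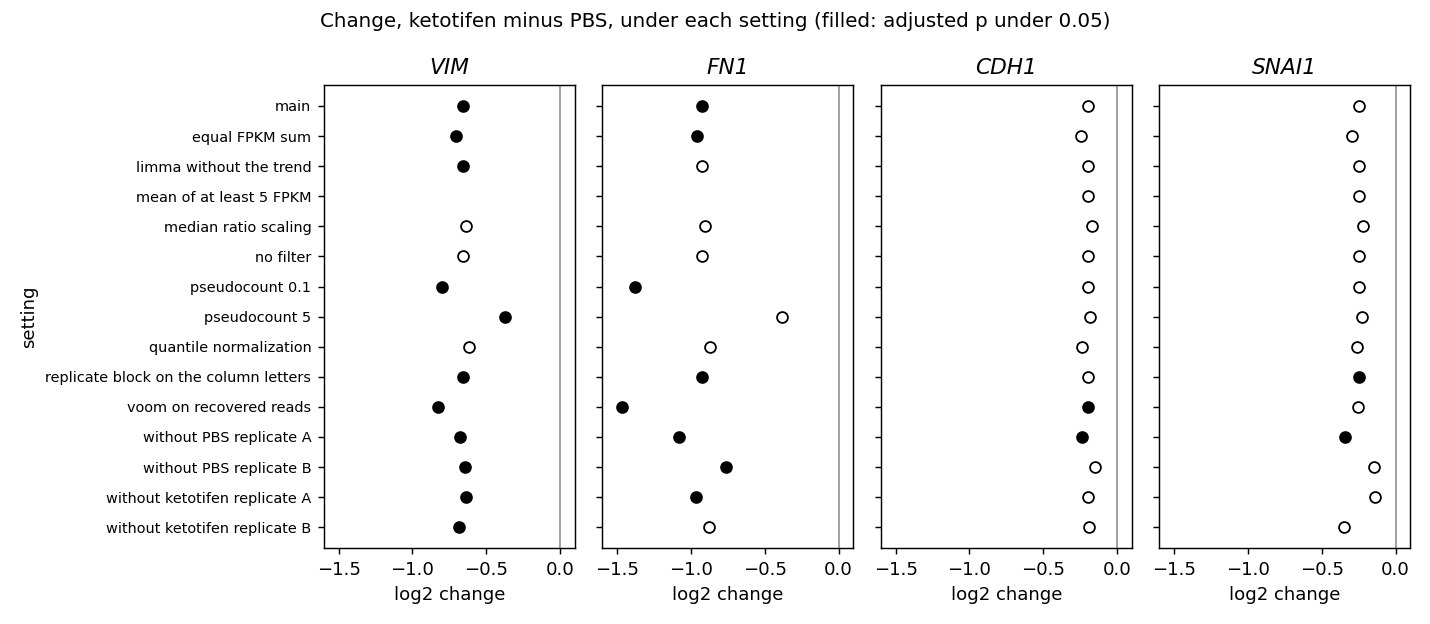
Log2 change, ketotifen minus PBS, of VIM, FN1, CDH1 and SNAI1 under the main and each other setting, filled where the adjusted p was under 0.05. All points lie below 0, and VIM and FN1 have none for the filter at a mean of 5 FPKM, which neither reached.

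Genes that act with these 10 were read from 7 related lists, and none of their tested members passed in limma. In all, 12 lists including cell type markers held 115 tested genes outside the set, of which limma called 0, with 24 at an unadjusted p under 0.05, and voom called 8 lower and 1 higher. Over all tested genes 2157 of 10586 had an unadjusted p under 0.05, close to the share in the lists. Voom called 3.86% of all genes lower and 3.72% higher, while its calls in the lists were mostly lower. Of these, 3 were among the 13 tested other EMT transcription factors and E-box binding partners. The lists were chosen with earlier results of these data known, so these counts are not read as particular to them. The median log2(FPKM + 1) change of all 10586 tested genes was -0.02, with 55.7% of them negative, beside -0.22 for the 6 tested genes of the set.

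Other EMT transcription factors and E-box binding partners had 13 tested members, 11 with a negative change, and a median of -0.12. SNAI3, a relative of SNAI1, had 19.0 ± 0.844 FPKM under PBS and 18.9 ± 0.386 under ketotifen (adjusted p = 0.957 in limma). SOX9, a progenitor factor, had 77.2 ± 6.52 FPKM under PBS and 62.9 ± 1.38 under ketotifen (adjusted p = 0.104 in limma and 0.00376 in voom). FOXC1, a forkhead factor, had 31.3 ± 0.601 and 26.2 ± 0.855 FPKM (adjusted p = 0.103 in limma and 0.012 in voom). ID2, an inhibitor of helix-loop-helix factors, had 71.4 ± 2.68 and 60.0 ± 2.62 FPKM (adjusted p = 0.106 in limma and 0.0211 in voom). Corepressors and regulators of SNAI1 protein had 17 tested members and a median of -0.05. None was called by limma or voom. AJUBA, a LIM protein that binds SNAI1, had 2.99 ± 0.68 and 2.07 ± 0.0158 FPKM (adjusted p = 0.160 in limma).

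Of 32 mesenchymal structure and matrix genes 9 were tested and 23 were under the filter, with a mean below 1 FPKM. Most of these 23 had both ketotifen libraries below both PBS libraries, where 20.8% of genes under the filter with any read did. TNC, named after its values were seen, had 33 and 33 reads with PBS and 8 and 4 with ketotifen. TAGLN and THY1 were above in both, where 9.99% were. Many of the 23 had few reads and none was tested in the main comparison, so this is a description. The median change of the 9 tested genes was -0.06, with 7 negative and 2 positive. The 2 positive genes were COL5A2, a collagen V chain, and MMP2, a matrix metalloproteinase, with both ketotifen libraries above both PBS libraries and neither past the limma test, named after their values were seen. ACTA2, smooth muscle actin, had 5.10 ± 0.826 FPKM under PBS and 3.84 ± 0.562 under ketotifen (adjusted p = 0.181 in limma). COL1A1, a collagen I chain, had 2.64 ± 0.15 and 2.17 ± 0.316 FPKM (adjusted p = 0.282 in limma), and ITGB1, the beta 1 integrin of fibronectin receptors, 84.1 ± 3.78 and 77.2 ± 0.243 FPKM (adjusted p = 0.251 in limma). Intermediate filament genes other than keratins had 7 tested members with a median of -0.07. Among them NEFH, a neurofilament, had 91.6 ± 6.36 and 84.4 ± 0.513 FPKM (adjusted p = 0.325 in limma), PLEC, the filament linker plectin, 34.6 ± 0.301 and 32.4 ± 0.265 FPKM (adjusted p = 0.365 in limma), and LMNA, the nuclear lamin, 67.2 ± 4.82 and 75.6 ± 3.30 FPKM (adjusted p = 0.207 in limma).

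**Figure D5:**
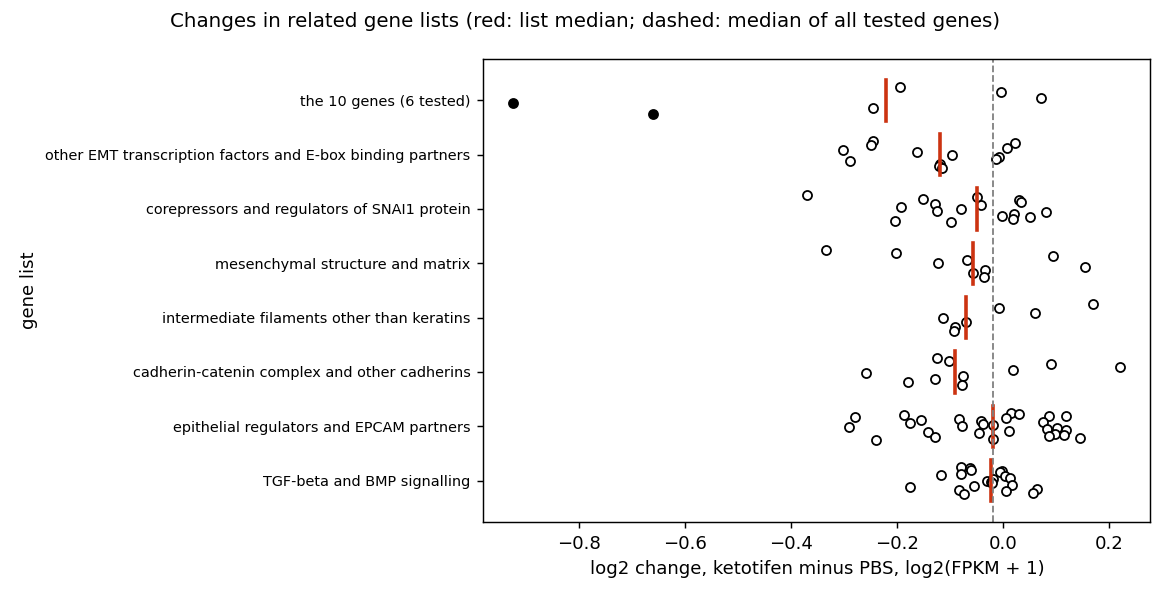
Log2(FPKM + 1) change, ketotifen minus PBS, of every tested gene in the set and in 7 related lists, with 1 circle per gene, filled where the limma adjusted p was under 0.05, red bars at list medians and a dashed line at the median of all tested genes. The filled circles are VIM and FN1, and the medians of the 7 related lists lie between -0.12 and -0.02.

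Catenins, nectins and other cadherins had 10 tested members with a median of -0.09. CTNNB1, or beta-catenin, which links cadherins to the cytoskeleton, had 64.7 ± 1.79 FPKM under PBS and 75.6 ± 2.82 under ketotifen (adjusted p = 0.115 in limma and 0.0117 in voom), and NECTIN1, a junction protein, 101 ± 4.73 and 88.9 ± 0.147 FPKM (adjusted p = 0.152 in limma and 0.0244 in voom). Epithelial regulators and EPCAM partners had 29 tested members, 15 with a negative change and 14 with a positive one, and a median of -0.02. Both ketotifen libraries were below both PBS libraries in 6 of the 29 and above in 9. Among all tested genes 31.2% were below and 23.2% above, so these counts are not read as particular to this list. The 9 include the keratin genes KRT8, with 423 ± 16.1 and 459 ± 7.57 FPKM (adjusted p = 0.264 in limma), and KRT18, with 373 ± 20.3 and 400.2 ± 5.82 FPKM (adjusted p = 0.361 in limma), named after their values were seen. The 3 with the smallest p were lower. DSP, the desmosomal protein desmoplakin, had 59.8 ± 1.52 and 49.1 ± 1.71 FPKM (adjusted p = 0.0968 in limma and 0.00181 in voom), and TJP1, a tight junction scaffold, 14.6 ± 0.716 and 12.2 ± 0.163 FPKM (adjusted p = 0.122 in limma and 0.012 in voom). CLDN3, a tight junction claudin, had 22.7 ± 0.368 and 19.8 ± 0.266 FPKM (adjusted p = 0.148 in limma).

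TGF-beta and BMP signalling had 21 tested members and a median of -0.02, with none called by limma or voom. Both ketotifen libraries were below both PBS libraries in 4 of the 21 and above in 1. Over all tested genes these shares were 31.2% and 23.2%. SMAD5, a BMP signal transducer, had 13.9 ± 0.0783 and 12.2 ± 0.115 FPKM (adjusted p = 0.170 in limma). TGFB3, a TGF-beta ligand, had 8.21 ± 0.238 and 7.72 ± 0.789 FPKM, with groups that overlapped (adjusted p = 0.579 in limma). The receptor gene TGFBR1, named after its values were seen, also overlapped, at 1.60 ± 0.063 and 1.62 ± 0.246 FPKM. TGFB1, the ligand best known for inducing EMT, was under the filter and was picked out after its values were seen. It had 1.13 and 1.29 FPKM in PBS libraries A and B and 0.324 and 0.141 FPKM in ketotifen libraries A and B, from 78, 94, 25 and 10 reads. Summed over libraries, the ketotifen level was 19.5% of the PBS level (interval 13.2% to 28.2%), and in limma with no filter the adjusted p was 0.318. TGFBR2, its type II receptor, was picked in the same way and had 87, 79, 56 and 51 reads, 61.9% of the PBS level (interval 48.1% to 79.3%, limma adjusted p with no filter 0.318).

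The genes whose pattern over the 4 libraries was closest to that of VIM, by Euclidean distance of centred log2(FPKM + 1) among the 7723 genes averaging 5 FPKM or more, were BNIP3 (distance 0.167), MUC6 (0.177), PHLDA2 (0.184), FUT11 (0.200) and LRATD1 (0.207). For FN1 they were BHLHE40 (0.268), ALDOC (0.337) and MUC6 (0.399). BNIP3, a mitophagy receptor, had 92.3 ± 6.58 FPKM under PBS and 60.9 ± 2.06 under ketotifen, and MUC6, a secreted mucin, 30.4 ± 3.50 and 20.4 ± 0.963 FPKM. Closest to CDH1 were ENAH (0.0106), TP53INP2 (0.0143) and RTN4 (0.0144), and closest to SNAI1 were STAM (0.00584), FAM222B (0.0177) and LUC7L2 (0.0233). The nearest distances were larger for VIM and FN1 than for CDH1 and SNAI1. VIM and FN1 themselves averaged below 5 FPKM, unlike the genes they were compared with. A pattern over 4 libraries rests on few values, so these are descriptions.

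Markers of other cell types were low. Of 9 fibroblast markers, which are themselves mesenchymal, 1 reached the filter (COL1A1, also in the matrix list), and PDGFRB was listed at 0 in all 4 libraries. Their summed level was 2.88 and 3.15 FPKM with PBS and 2.58 and 2.18 FPKM with ketotifen. COL1A1 made up most of that sum, at 2.53, 2.75, 2.39 and 1.95 FPKM in the same order, and did not pass. The sum was lower in both ketotifen libraries, and its part in the change of VIM and FN1 was not tested. The 7 endothelial markers summed to 0.207 to 0.343 FPKM per library, and none reached the filter. The immune markers summed to 2.92 and 4.14 FPKM with PBS and to 3.05 and 3.18 FPKM with ketotifen. Among them PTPRC, the pan-leukocyte gene, was at most 0.0281 FPKM, and CD68 alone reached the filter, at 3.37 ± 0.849 FPKM under PBS and 3.02 ± 0.119 under ketotifen (adjusted p = 0.669 in limma).

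The label of a neuroendocrine prostate cancer line was met in part. INSM1, a neuroendocrine transcription factor, had 19.7 to 22.9 FPKM in the 4 libraries and NCAM1, a neural adhesion molecule, 43.9 to 52.0 FPKM, while CHGA was at most 0.0886 FPKM and SYP at most 0.594 FPKM. NCAM1 (adjusted p = 0.107 in limma and 0.00781 in voom) and ENO2 (adjusted p = 0.102 in limma and 0.0446 in voom) were lower in both ketotifen libraries, and UCHL1 higher in both (adjusted p = 0.226 in limma). The prostate luminal genes TMPRSS2 (adjusted p = 0.983 in limma) and HOXB13 (adjusted p = 0.894 in limma) overlapped between the groups.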

How the data were processed

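RNA-seq of 4 libraries (2 PBS, 2 ketotifen) was deposited by the authors as FPKM per gene symbol. Per the submitters' processing notes the tools were fastp, HISAT2 and HTSeq and the build GRCh38, with no versions or roles stated. Not given in the sources used here: annotation, gene lengths and strand setting. Reads of antisense genes overlapping VIM, CDH1, CDH2, TWIST1, ZEB1 and ZEB2 cannot be told apart from theirs. Column letters A and B were not matched to replicate numbers.

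The genes and lists were chosen with earlier results of these data known. For the main comparison log2(FPKM + 1) was fitted in limma 3.58.1 with R 4.3.3, using its intensity trend, over the 10586 genes averaging 1 FPKM or more, two-sided, called at a Benjamini-Hochberg adjusted p under 0.05. With 2 against 2 libraries no single-gene permutation test was made. Reads were recovered for 99.8% of tested genes (10567), as whole numbers within the rounding error of the printed digits where that error was under 0.05 reads (Python 3.11.15). They are exact up to a common factor per gene, had a median of 1520 reads, and were tested with voom, using the implied totals as library sizes. Both methods were also run on simulated data with the same spread for every gene, which does not vouch for the calls made here. Gene coordinates are from GENCODE v29 and promoters from RefSeq GRCh38.p14. Named genes are the 10 genes, every called gene and the 3 smallest limma p of each list, and the genes nearest in pattern to VIM (5), FN1, CDH1 and SNAI1 (3 each). Under this rule CSNK2A1, SIN3A, CTNND2, BMPR2 and TGFB3 also fell among the 3 of a list, and none passed. Some genes these rules take are left out of the text. Alternatives were pseudocounts of 0.1 and 5, other filters and scalings, no trend, voom, leaving out each library and, added later, a block on the column letters.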

Additional observations from a re-analysis of the deposited data

How the results depend on the processing

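Groups of 2 libraries limit every call. Of the 10 genes, limma called 2 lower (VIM and FN1). Rescaling to an equal FPKM sum and a pseudocount of 0.1 also gave 2, and voom 3. The number was 1 without the trend and 1 with a pseudocount of 5, and 0 with no filter, with a filter at 5 FPKM (where neither gene was tested), and after median ratio or quantile scaling. Leaving out 1 library gave from 1, when ketotifen library B was omitted, to 4, when PBS library A was omitted. None of the 10 was called higher under any setting run.

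Over all genes, 12 were called lower and 1 higher. Lower calls numbered 3 without the trend, 1 after median ratio scaling, 2 after quantile normalization, 0 with no filter and 408 in voom, and from 7 to 875 when single libraries were left out. Higher calls numbered 15 with a filter at 5 FPKM, 0 with no filter and 393 in voom, and from 3 to 1061 when single libraries were left out, the fewest with ketotifen library B left out. Omitting PBS library A gave 875 lower and 1061 higher, omitting PBS library B 167 and 254, and omitting ketotifen library A 23 and 5. For the other lists, 0 calls in either direction became 8 lower and 1 higher in voom, and 0 to 18 lower and 0 to 9 higher when single libraries were left out. The cause of these differences was not tested.

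The change of VIM lay between -0.80 and -0.37, and that of FN1 between -1.38 and -0.38, over 13 limma settings. Signs turned for small changes. After median ratio scaling CDH2 was 0.024, after quantile normalization EPCAM was -0.016 and HOXB13 0.021, and at an equal FPKM sum TMPRSS2 was -0.045. Leaving out single libraries gave ranges that crossed 0, from -0.027 to 0.021 for CDH2, -0.30 to 0.096 for CD68, -0.18 to 0.12 for HOXB13, -0.18 to 0.0097 for TGFB3 and -0.087 to 0.094 for TMPRSS2.

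A fit blocked on the column letters A and B was added after the data were seen. No pairing by the labels' replicate numbers was possible, because the letters could not be tied to them. The A minus B differences of the 2 groups correlated at 0.102 over 10586 genes. With this block, limma called 231 genes lower and 406 higher, 7 genes of the other lists lower and 1 higher, and 3 of the 10 genes lower, namely VIM (adjusted p = 0.00497), FN1 (adjusted p = 0.00493) and SNAI1 (adjusted p = 0.0242).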
